A study of Mus musculus with 9 samples.

Results

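Nascent transcription was measured by PRO-seq, an assay in which engaged RNA polymerases run on in isolated nuclei, at 8 mouse genes where a region at one annotated end lost signal within 30 min of induction of a Firre transgene. The genes were Aifm2, Unc13a, Zkscan16, Megf6, Tpcn1 and Kif3c, listed for the change of an end region at 15 min, and Bhlhe40 and Prag1, listed for the change at 30 min. The units counted were bidirectional regions, places from which transcription leaves in both directions, each scored in a 600 bp window on mm10. Of 174289 such regions, 97 had their centre inside or within 1 kb of either end of these 8 genes. There were 39 in Megf6, 12 each in Tpcn1 and Prag1, 11 in Unc13a, 9 in Kif3c, 6 in Bhlhe40, and 4 each in Aifm2 and Zkscan16.

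All 9 libraries came from mouse embryonic stem cells of the genotype Firre KO with a Firre inducible transgene, so every group lacked the endogenous Firre gene and carried the transgene. The groups were 0 min with no doxycycline, and 15 min and 30 min after 1 ng/μL doxycycline, with 3 libraries each. Cells treated with doxycycline but carrying no transgene were not analysed here, so the drug and the transgene cannot be told apart, and the number of clones behind the line was not given in the sources used here. Because the libraries are of bulk nuclei, fewer cells transcribing a gene and less transcription per cell cannot be told apart.

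RNA polymerase II commonly starts in both directions from an active promoter and pauses a short way downstream before it is released into the gene body, so that run-on signal near a gene start reflects starting and pausing while signal farther inside reflects elongation or transcription from internal enhancers. PRO-seq reads engaged polymerase and not mature RNA, which lets it register changes within minutes. The 8 genes have unrelated functions: 2 encode DNA-binding regulators (Zkscan16, Bhlhe40), 1 a signalling scaffold (Prag1), 2 act in vesicle release and transport (Unc13a, Kif3c), 2 encode a channel and an EGF-repeat protein (Tpcn1, Megf6), and 1 a redox enzyme (Aifm2).

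The promoters of Unc13a, Megf6 and Kif3c are shown because their annotated starts lie at the ends that lost signal. They come from RefSeq on GRCm38.p6, the assembly of mm10, as 300 bases from 250 before to 50 after the start, and 4 of the 8 genes matched the table. For Zkscan16, Tpcn1, Bhlhe40 and Prag1, which did not match, it is not known here which annotated end is the start. Capitals mark GC boxes, searched as GGGCGG, the CCAAT motif, and a CRE core, searched as TGACGT, on both strands in each case.
Unc13a, chr8:71671708-71672007, minus strand: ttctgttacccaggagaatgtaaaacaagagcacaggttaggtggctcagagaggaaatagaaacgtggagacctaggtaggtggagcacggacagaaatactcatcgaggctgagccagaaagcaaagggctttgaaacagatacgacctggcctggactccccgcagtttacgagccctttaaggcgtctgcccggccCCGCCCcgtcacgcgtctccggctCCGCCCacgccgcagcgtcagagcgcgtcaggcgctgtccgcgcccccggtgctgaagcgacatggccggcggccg
Megf6, chr4:154170463-154170762, plus strand: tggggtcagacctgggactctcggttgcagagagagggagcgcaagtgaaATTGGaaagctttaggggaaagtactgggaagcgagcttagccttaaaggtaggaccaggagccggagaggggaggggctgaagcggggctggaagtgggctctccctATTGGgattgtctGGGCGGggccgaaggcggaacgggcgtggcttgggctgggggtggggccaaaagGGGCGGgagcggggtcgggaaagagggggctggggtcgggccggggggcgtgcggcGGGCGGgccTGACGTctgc
Kif3c, chr12:3364882-3365181, plus strand: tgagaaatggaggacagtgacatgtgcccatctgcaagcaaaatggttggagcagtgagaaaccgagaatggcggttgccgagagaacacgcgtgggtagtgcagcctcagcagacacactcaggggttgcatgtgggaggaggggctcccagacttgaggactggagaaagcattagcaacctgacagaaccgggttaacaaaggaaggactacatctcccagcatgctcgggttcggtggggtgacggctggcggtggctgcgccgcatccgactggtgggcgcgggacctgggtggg
The Unc13a sequence lay wholly inside the window that lost signal (300 bases shared) and held 27 CG dinucleotides and 2 GC boxes. The Megf6 sequence shared 272 bases with its window and held 20 CG dinucleotides, 3 GC boxes, 2 CCAAT boxes and 1 CRE core. The Kif3c sequence held 15 CG dinucleotides and no match to any motif searched, and the Kif3c window that lost signal was centred 433 bp downstream of the start. The fourth gene matched, Aifm2, had 4 CG dinucleotides and no match, and its window was centred 4855 bp upstream of the start in that table, inside the longer gene span used for naming. Over all 32851 promoters of the table the median was 7 CG dinucleotides, 35.7% held a GC box, 37.4% a CCAAT box and 7.51% a CRE core. Motifs with no match in these 4 sequences were the TATA box (letters TATAAA), held by 13.6% of all promoters, the E-box (letters CACGTG) by 7.15%, the AP-1 motif (letters TGACTCA) by 5.2%, the ETS motif (letters CCGGAAG) by 8.86%, the NRF1 core (letters GCGCATG) by 3.91%, and the YY1 motif (letters AAGATGG) by 6.34%.

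The libraries held 3813365 to 5980366 reads in the regions, and values are given as CPM, counts per 1000000 of those reads after TMM scaling, where 3 counts equal 0.502 to 0.787 CPM. Separate cultures behind the replicates are not stated in the labels, so p-values measure only a spread between libraries that may be technical. Firre, the check of the labels, summed over its 8 regions to 3.34 ± 1.37 CPM at 0 min, 295 ± 37.1 at 15 min and 785 ± 7.33 at 30 min (mean ± SD, n = 3 libraries). Embryonic stem cell markers had an end region for 8 of 10 genes and summed to 1076, 1134 and 1126 CPM at the 3 times, with no such region at Pou5f1 or Esrrb. Fibroblast markers had one for 3 of 7 genes, summing to 2.12, 2.50 and 1.79 CPM, and primitive endoderm markers for 2 of 5, summing to 1.15, 1.64 and 0.851 CPM. Replicate counts differed by more than sampling noise (chi-squared per degree of freedom 2.17 to 3.53), and 15 min library 3 stood apart on principal component 2, which held 13.9% of the variance.

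The chosen end regions were selected for low values at 15 or 30 min, so their changes are given as a description without a test. The listing kept only regions called lower, with a mean of at least 20 counts and every later value below every 0 min value. Separation from 0 min at the listing time was thus fixed in advance for each chosen region. Before induction their mean level ranged from 6.63 CPM at Aifm2 to 30.2 CPM at Unc13a, between the 29.6th and the 71.3rd percentile of the 15011 gene-end regions tested, whose median was 14.5 CPM. Of those gene-end regions, 8.04% were called lower and 1.81% higher at 15 min, with a median log2 change of -0.16, and at 30 min 0.779% were lower and 0.493% higher. Among regions meeting those listing conditions, without repeats of a gene name, the 12 lowest at 15 min also held an end of the Polycomb gene Cbx8. It stood at a log2 of -1.70 ± 0.33 (SE) and is not among the listed genes, so the 6 genes are not the 6 lowest gene ends. The last region inside the 12 was that of Kif3c, at a log2 of -1.66 ± 0.33 (SE), and the first outside was an end of Rabac1 at -1.64 ± 0.32. Over all gene-end regions tested, without those conditions, 0.22% had a lower log2 change at 15 min than the Kif3c region. Under the same conditions at 30 min, the last listed gene end was that of Megf6 at -1.42 ± 0.34. The first gene end outside was that of Celsr2 and Gm52630 at -1.36 ± 0.31.

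**Figure D1:**
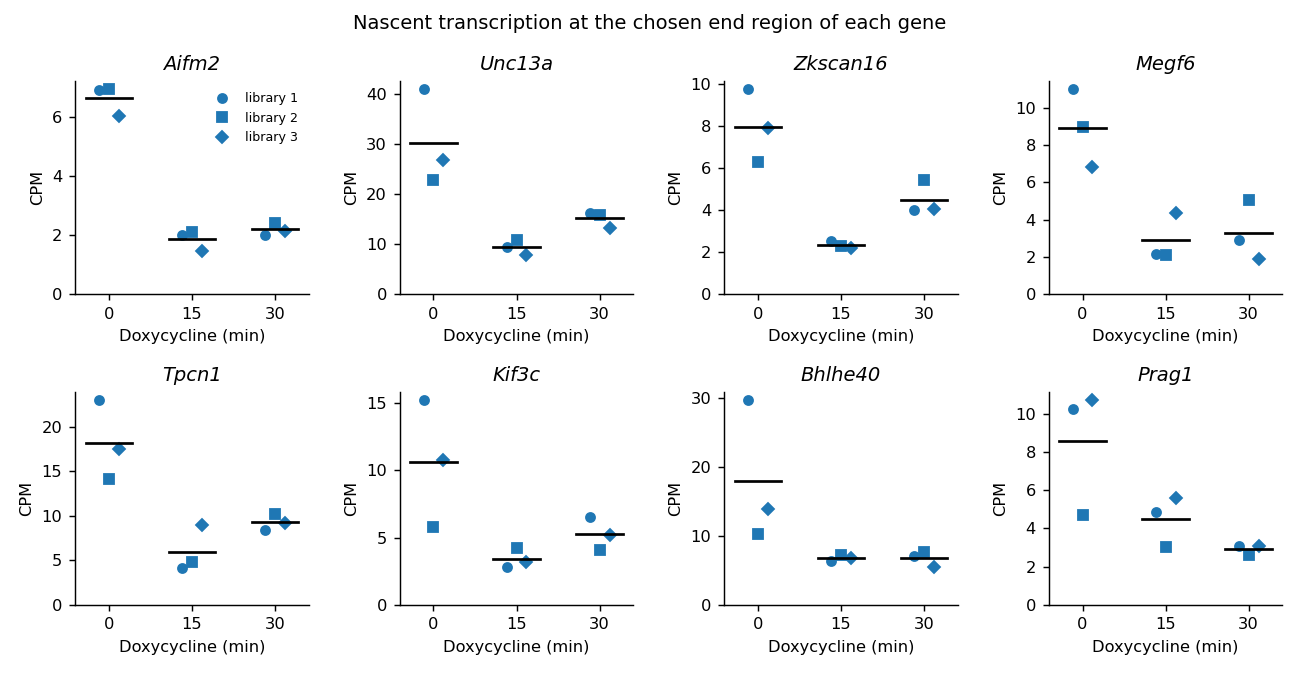
Level of the chosen end region of each of the 8 genes (CPM, vertical axis from 0) against minutes of doxycycline. Markers are the 3 libraries of each time and bars their mean; at Bhlhe40 0 min library 1 sits at 29.8 CPM, above the 10.3 and 13.9 CPM of the other 0 min libraries, and at Prag1 the 0 and 15 min values overlap.

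Zkscan16 encodes a zinc finger protein of the SCAN family. Its chosen region, bidir_108774 (chr4:58943464-58944063), lies across the left annotated end of the gene (chr4:58943568-58962624). It stood at 9.74, 6.27 and 7.87 CPM in the 0 min libraries, 2.50, 2.29 and 2.19 CPM at 15 min and 4.01, 5.40 and 4.03 CPM at 30 min. All values at 15 and at 30 min lay below all values at 0 min, and the 30 min libraries all lay above the 15 min ones. The log2 change from 0 min was -1.77 ± 0.31 (SE) at 15 min and -0.83 ± 0.28 at 30 min. A neighbouring window at the same end, bidir_108775, went from 3.06 ± 0.724 CPM (SD, n = 3) at 0 min to 0.846 ± 0.259 CPM at 15 min and 1.77 ± 0.554 CPM at 30 min. The third window there, bidir_108773, overlapped the chosen one and showed no such drop, at 1.53 ± 2.01, 1.40 ± 0.942 and 1.59 ± 0.956 CPM, with 0 reads in 0 min library 1. How reads in overlapping windows were counted was not given in the sources used here. Only 1 region lay inside the gene, with 6, 3 and 11 reads in all at 0, 15 and 30 min, so the end could not be set beside the gene body.

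Bhlhe40 encodes a basic helix-loop-helix repressor that takes part in the circadian clock and the response to low oxygen. Its chosen region, bidir_134919 (chr6:108667310-108667909), lies 684 bp beyond the right end of this short gene (chr6:108660629-108666925). The 0 min libraries gave 29.8, 10.3 and 13.9 CPM, the 15 min libraries 6.33, 7.24 and 6.80 CPM and the 30 min libraries 7.11, 7.64 and 5.45 CPM. The later values lay below every 0 min value, but 0 min library 1 was far above the other 2. The log2 change was -1.43 ± 0.29 (SE) at 15 min and -1.43 ± 0.29 at 30 min, and without 0 min library 1 it was -0.84 and -0.83.

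Elsewhere in Bhlhe40, 1 internal region was called lower at both times and 1 window at the left end at 15 min alone. The only region inside the gene, bidir_134918, 1.85 kb from the right end, had 28.3, 15.7 and 12.8 CPM at 0 min, 7.50, 8.77 and 9.96 CPM at 15 min and 9.11, 7.45 and 8.77 CPM at 30 min. It fell by 1.15 ± 0.25 on the log2 scale at 15 min (edgeR's quasi-likelihood test, adjusted p = 0.00458) and by 1.19 ± 0.25 at 30 min (edgeR, adjusted p = 0.0128). The left-end windows of Bhlhe40 also lie in or at an end of the gene 0610040F04Rik, and without a stated strand their reads cannot be told apart. At the left end bidir_134917 changed by -1.37 ± 0.36 (edgeR, adjusted p = 0.0169) at 15 min and by -1.07 ± 0.35 (edgeR, adjusted p = 0.117) at 30 min. Each of these calls was lost without 0 min library 1; that of bidir_134918 at 30 min was also lost without 30 min library 2 or 3, and that of bidir_134917 without 15 min library 1 or 2. The left-end windows bidir_134915 and bidir_134916 overlap others and gave -0.66 ± 0.51 and -0.82 ± 0.40 at 15 min and -1.17 ± 0.54 and -1.14 ± 0.41 at 30 min, none called. A further one, bidir_134914, was not tested and stood at 0.663 ± 0.128, 0.405 ± 0.701 and 0.976 ± 0.302 CPM at 0, 15 and 30 min. Beyond the left end, both tested regions nearest to the annotated RNA gene 0610040F04Rik also fell: bidir_134913, at 1.33 kb, by 0.93 ± 0.24 at 15 min (edgeR, adjusted p = 0.0146) and bidir_134912, at 4.96 kb, by 1.02 ± 0.29 (edgeR, adjusted p = 0.0305). At 30 min bidir_134912 fell by 1.30 ± 0.30 (edgeR, adjusted p = 0.024), while bidir_134913 stood at -0.50 ± 0.23 and was not called (edgeR, adjusted p = 0.288). The 15 min call of each was lost without 0 min library 1 or 15 min library 1 or 2, and that of bidir_134912 also without 15 min library 3, with factors from gene ends and with only the 2 groups fitted; its 30 min call was lost without 0 min library 1 or any 1 of the 30 min libraries.

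Prag1 encodes a pseudokinase that acts as a scaffold for signalling by SRC-family kinases. Its chosen region, bidir_150361 (chr8:36094881-36095480), lies at the left end of the gene (chr8:36094827-36147787). Its values were 10.3, 4.70 and 10.8 CPM at 0 min, 4.83, 3.05 and 5.59 CPM at 15 min and 3.10, 2.61 and 3.08 CPM at 30 min. The 15 min values overlapped those of 0 min, whereas the 30 min values lay below all of them. The mean was lower at 30 than at 15 min, with log2 changes of -0.94 ± 0.32 and -1.55 ± 0.34 (SE). An overlapping window at the same end, bidir_150360, was not tested and held 33, 16 and 19 reads in all at 0, 15 and 30 min, or 2.27 ± 1.02 CPM at 0 min and 1.07 ± 0.353 CPM at 15 min. The 10 internal regions of Prag1 summed to 23.2 ± 2.12, 20.8 ± 4.48 and 22.3 ± 3.33 CPM at 0, 15 and 30 min, with overlapping groups. The highest of them, bidir_150371, 48.6 kb inside, gave 7.94 ± 1.45, 8.53 ± 2.98 and 7.93 ± 0.884 CPM (log2 0.14 ± 0.26 and 0.01 ± 0.27; edgeR, adjusted p = 0.799 and 0.99).

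Unc13a encodes a protein that primes synaptic vesicles for release. Its chosen region, bidir_152275 (chr8:71671489-71672088), covers the annotated start at the right end of the gene (chr8:71624125-71671774) and held the highest level of the 8. It gave 40.9, 22.8 and 26.7 CPM at 0 min, 9.33, 10.9 and 7.77 CPM at 15 min and 16.2, 15.8 and 13.3 CPM at 30 min. The 3 times did not overlap, the 30 min values lying between the others, and the log2 change was -1.69 ± 0.22 (SE) at 15 min and -1.0 ± 0.21 at 30 min. Inside the gene, 1.49 kb from that end, bidir_152274 had 4.78, 1.34 and 2.88 CPM at 0 min, 1.33, 0.381 and 0.972 CPM at 15 min and 2.55, 2.05 and 1.90 CPM at 30 min. It fell by 1.74 ± 0.54 on the log2 scale at 15 min (edgeR, adjusted p = 0.0455), a call close to the threshold that rested on 44 and 14 reads and held in 6 of 16 alternatives; it was lost when any 1 library other than 0 min library 2 was left out. At 30 min it stood at -0.49 ± 0.47 (edgeR, adjusted p = 0.681). Farther inside, bidir_152273 and bidir_152271, at 3.01 and 6.18 kb, gave -0.79 ± 0.39 and -0.85 ± 0.48 at 15 min and -1.26 ± 0.41 and -1.20 ± 0.50 at 30 min, none called. The highest internal region, bidir_152268 at 20.4 kb, gave 3.79 ± 0.546 CPM at 0 min, 5.78 ± 1.83 at 15 min and 5.37 ± 0.846 at 30 min (edgeR, adjusted p = 0.264 and 0.464).

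Outside Unc13a, on the side of the end that lost signal, 2 of 3 tested regions nearest to Jak3, a cytokine receptor kinase gene, fell at 15 min. The region bidir_152276, at 4.34 kb, went from 28.8 ± 6.64 to 16.4 ± 1.03 CPM (log2 -0.83 ± 0.19; edgeR, adjusted p = 0.00734). The region bidir_152278, at 5.69 kb, went from 27.9 ± 2.10 to 15.2 ± 2.04 CPM (log2 -0.89 ± 0.18; edgeR, adjusted p = 0.00319). The first was not called without 0 min library 1, and the second was called in all 18 alternatives. At 30 min they stood at 23.4 ± 4.99 and 21.6 ± 4.41 CPM and were not called (edgeR, adjusted p = 0.459 and 0.333).

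Kif3c encodes a kinesin-2 motor subunit that moves cargo along microtubules. Its chosen region, bidir_34020 (chr12:3365266-3365865), lies at the left end of the gene (chr12:3365132-3406494) and also at an end of I920046F24Rik, and without a stated strand the 2 genes' reads cannot be told apart. It gave 15.2, 5.82 and 10.8 CPM at 0 min, 2.83, 4.19 and 3.16 CPM at 15 min and 6.56, 4.10 and 5.21 CPM at 30 min. The 15 min values lay below all 0 min values, while those at 30 min overlapped them. The log2 change was -1.66 ± 0.33 (SE) and then -1.02 ± 0.31. The overlapping window bidir_34019, which covers the annotated start, was not tested and stood at 1.64 ± 0.116, 0.980 ± 0.626 and 0.621 ± 0.392 CPM at the 3 times. Both regions 1 to 3 kb inside were low at 15 min as well: bidir_34021 at 1.51 kb gave -1.34 ± 0.49 (edgeR, adjusted p = 0.0895) and bidir_34022 at 2.24 kb gave -1.60 ± 0.52 (edgeR, adjusted p = 0.0566), neither called. Together they summed to 6.62 ± 0.875, 2.53 ± 1.60 and 3.69 ± 0.551 CPM at 0, 15 and 30 min. The 5 regions farther inside summed to 26.7 ± 4.80, 22.3 ± 2.67 and 19.5 ± 1.33 CPM. The highest of these, bidir_34027 at 30.4 kb, gave -0.32 ± 0.26 and -0.57 ± 0.27 (edgeR, adjusted p = 0.506 and 0.308).

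Tpcn1 encodes a cation channel of endosomes and lysosomes. Its chosen region, bidir_125277 (chr5:120588025-120588624), lies at the right end of the gene (chr5:120534157-120588678) and inside the annotated span of Iqcd. It gave 23.0, 14.1 and 17.6 CPM at 0 min, 4.17, 4.77 and 8.99 CPM at 15 min and 8.38, 10.3 and 9.24 CPM at 30 min. All later values lay below those of 0 min, with 15 min library 3 higher than the other 15 min libraries, and the log2 change was -1.66 ± 0.26 (SE) and then -0.98 ± 0.25. An overlapping window at the same end, bidir_125276, went from 13.2 ± 3.49 CPM to 6.88 ± 2.10 and 9.66 ± 1.21 CPM, and a second overlapping window, bidir_125278, stayed within its spread at 2.67 ± 1.55, 2.60 ± 1.58 and 2.04 ± 0.943 CPM. Signal inside Tpcn1 was also lower: its 9 internal regions summed to 17.1 ± 2.55, 10.6 ± 2.78 and 11.5 ± 1.91 CPM at 0, 15 and 30 min, although neither tested region was called. The highest, bidir_125271 at 21.6 kb, gave -0.62 ± 0.42 and -0.45 ± 0.41 (edgeR, adjusted p = 0.395 and 0.661).

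Megf6 encodes a protein with multiple EGF-like domains. Its chosen region, bidir_117120 (chr4:154170491-154171090), covers the annotated start at the left end of the gene (chr4:154170704-154275721), the longest of the 8. It gave 11.0, 8.95 and 6.82 CPM at 0 min, 2.17, 2.10 and 4.37 CPM at 15 min and 2.92, 5.03 and 1.90 CPM at 30 min. The later values lay below all 0 min values, and the log2 change was -1.69 ± 0.35 (SE) and then -1.42 ± 0.34. A window outside that end, bidir_117119, was not tested and stood at 1.36 ± 0.385, 0.638 ± 0.141 and 1.51 ± 0.717 CPM. In the gene body, the 36 internal regions, all over 3 kb from that end, summed to 29.9 ± 4.23, 28.1 ± 2.78 and 23.3 ± 3.35 CPM at 0, 15 and 30 min. The highest internal region, bidir_117156 at 99.1 kb, gave 3.27 ± 0.530, 2.73 ± 1.36 and 3.31 ± 0.711 CPM. At the other end, bidir_117157 gave 7.60 ± 1.90, 7.75 ± 2.83 and 8.30 ± 0.463 CPM, a log2 change of 0.04 ± 0.28 and 0.14 ± 0.28 (edgeR, adjusted p = 0.949 and 0.866).

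Aifm2 encodes an oxidoreductase that protects membranes from ferroptosis, a form of cell death driven by lipid peroxidation. Its chosen region, bidir_18692 (chr10:61715495-61716094), lies 0.531 kb inside the left annotated end of the gene (chr10:61715263-61739260). It gave 6.91, 6.94 and 6.03 CPM at 0 min, 2.00, 2.10 and 1.46 CPM at 15 min and 2.00, 2.42 and 2.13 CPM at 30 min. This was the tightest of the 8 at 0 min, the later values were well apart from it, and the log2 change was -1.81 ± 0.33 (SE) and then -1.59 ± 0.33. A farther window outside that end, bidir_18690, held 7, 4 and 4 reads in all at the 3 times, and one just outside it, bidir_18691, had 2.66 ± 1.19, 0.806 ± 0.658 and 1.68 ± 0.501 CPM. The single internal region held 8, 6 and 7 reads in all at the 3 times, too few to compare with the end.

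From 15 to 30 min the chosen regions did not move together. The log2 difference of 30 against 15 min was 0.94 ± 0.33 (SE) at Zkscan16, 0.69 ± 0.23 at Unc13a, 0.68 ± 0.28 at Tpcn1 and 0.64 ± 0.35 at Kif3c. It was 0.27 ± 0.39 at Megf6, 0.22 ± 0.39 at Aifm2, 0.00 ± 0.32 at Bhlhe40 and -0.60 ± 0.36 at Prag1. The 15 and 30 min values of a gene share the same 0 min libraries, and listing a gene for its lowest time shapes this difference. None of the 34 other tested regions of these genes was called between 15 and 30 min by edgeR (0.49% of all tested regions were lower and 0.214% higher); 1 was higher and 0 lower at an unadjusted p under 0.05, and DESeq2 called 0 of the 7 it adjusted.

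Across the 8 genes, signal at the ends that lost signal was set beside signal inside the same genes, as a description, since the ends were picked for low values and the inside was not. Only at Unc13a, Megf6 and Kif3c was the end that lost signal shown to be an annotated start. At Aifm2 the start of the promoter entry lay 4855 bp away, and at the other genes the start was not known. The sums thus do not set promoters beside gene bodies. Summed over all 17 regions at these ends, the signal was 178, 106 and 129 CPM at 0 min, 46.0, 52.4 and 59.0 CPM at 15 min and 71.2, 75.1 and 62.8 CPM at 30 min. The 3 times did not overlap, a separation from 0 min that the choice of these ends makes likely. The mean at 15 and 30 min was 38.1% and 50.6% of that at 0 min. Of the windows at these ends, 4 of the 8 chosen and 6 of the 9 others overlap another window, beside 17 of 75 internal ones. Reads in shared stretches may thus be counted more than once in the sums. The 6 regions 1 to 3 kb inside summed to 30.0 ± 8.76 CPM at 0 min, 13.6 ± 2.56 at 15 min (45.3%) and 16.0 ± 2.65 at 30 min (53.2%). Most of this came from the region of Bhlhe40, at 19.0 ± 8.25, 8.74 ± 1.23 and 8.45 ± 0.874 CPM. That gene had no region over 3 kb inside, so the sums at the 2 distances came from different sets of genes. The region of Prag1 rose in mean, from 0.810 CPM at 0 min to 1.01 and 1.17 CPM. The 69 regions over 3 kb inside summed to 117 ± 8.07 CPM at 0 min, 98.8 ± 12.8 at 15 min (84.6%) and 91.1 ± 3.53 at 30 min (78.0%). With each library left out in turn, the 15 min share of 0 min ran from 34.1% to 44.6% at the ends, from 40.3% to 54.4% at 1 to 3 kb and from 79.3% to 90.2% beyond 3 kb.

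Gene by gene, a larger change at the end than inside was largely fixed by that choice, so only the size of the difference is given. As the log2 change of the summed end signal minus that of the summed internal signal, the difference at 15 min was -1.46 at Megf6, -1.37 at Unc13a, -1.06 at Kif3c, -0.81 at Prag1, -0.45 at Tpcn1 and -0.29 at Bhlhe40. At 30 min it was -1.32 at Prag1, -0.74 at Megf6, -0.55 at Unc13a, -0.53 at Kif3c, -0.25 at Bhlhe40 and -0.13 at Tpcn1, the last turning to 0.13 without 0 min library 1. Between libraries the SD of this log ratio ranged from 0.309 to 0.748 for the 15 min comparison and from 0.243 to 0.593 for the 30 min one. A scaling factor shared by the libraries of a time cancels in this difference, but factors that differ between those libraries do not cancel exactly. Aifm2 and Zkscan16 held under 100 internal reads and gave no value.

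**Figure D2:**
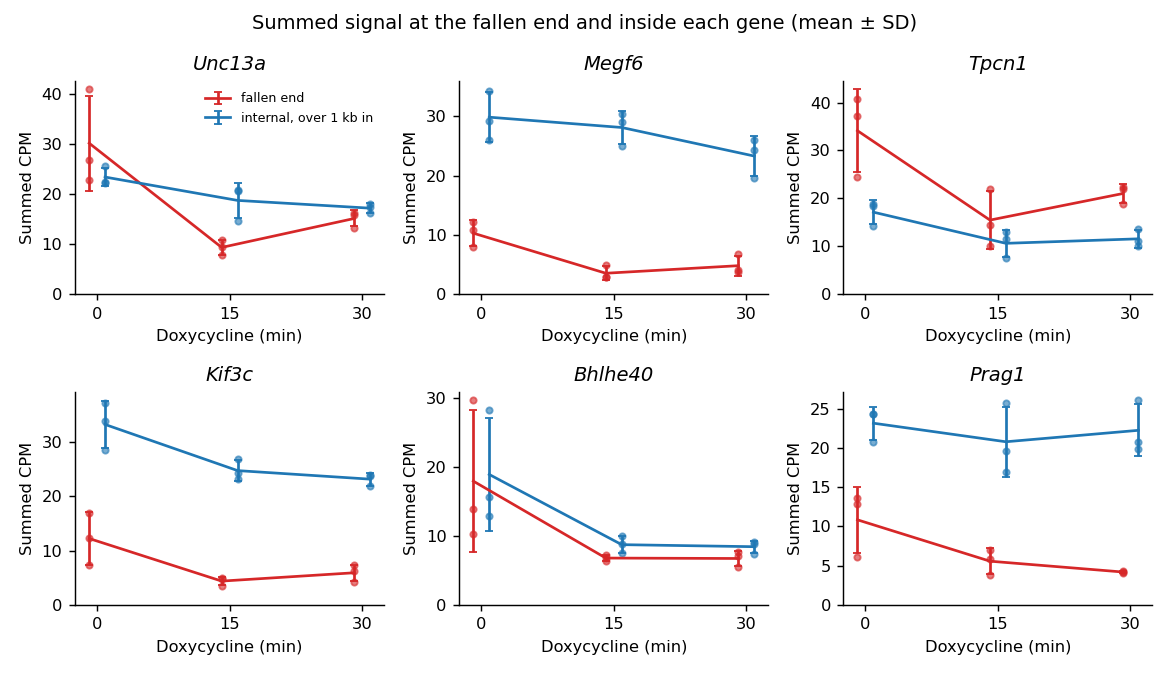
Summed CPM at the end that lost signal (red) and over regions more than 1 kb inside (blue) for the 6 genes with enough internal reads, against minutes of doxycycline; points are libraries, lines and bars mean ± SD of 3. In Megf6 the inside goes from 29.9 to 28.1 CPM at 15 min while the end goes from 10.3 to 3.52 CPM, and in Bhlhe40 both lines drop.

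Internal regions took no part in the choice, whereas the other windows at either end were candidates in it. Of the 97 regions, 42 passed the filter on low counts: the 8 chosen ones, 5 of 9 others at the same end, 4 of 6 at 1 to 3 kb, 21 of 69 farther inside and 4 of 5 at the other end. At 15 min 2 of the 25 tested internal regions were called lower by edgeR and 0 higher, where 3.35% of all tested regions inside genes were called lower and 3.83% higher; 5 were lower and 0 higher at an unadjusted p under 0.05, and DESeq2 called 1 of the 12 it adjusted. The 2 were bidir_152274 in Unc13a and bidir_134918 in Bhlhe40, both within 3 kb of the end that lost signal. At 30 min 1 of 25, bidir_134918, was called lower (0.578% of regions inside genes lower, 1.14% higher). Beyond 3 kb 0 of 21 were called at either time by edgeR (at 15 min 1 was lower at an unadjusted p under 0.05, at 30 min 3). DESeq2 also called 0, but gave no adjusted p for 10 of the 21 at 15 min and for 16 at 30 min. Of the 21, 17 had a log2 change below 0 at 15 min, with a median of -0.32 and a range from -0.85 to 0.60. Counting every tested region but the chosen ones, 5 of 34 were called lower at 15 min (3.96% of all tested regions) and 1 of 34 at 30 min (0.497%). Of the 5, 2 were windows at the selected end itself, which its selection makes low, and 1 was at the other end of Bhlhe40. Without 0 min library 1, 0 of the 34 were called at either time. Shares of all regions at an unadjusted p or by DESeq2 are not given here, so the counts by those criteria have no background.

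**Figure D3:**
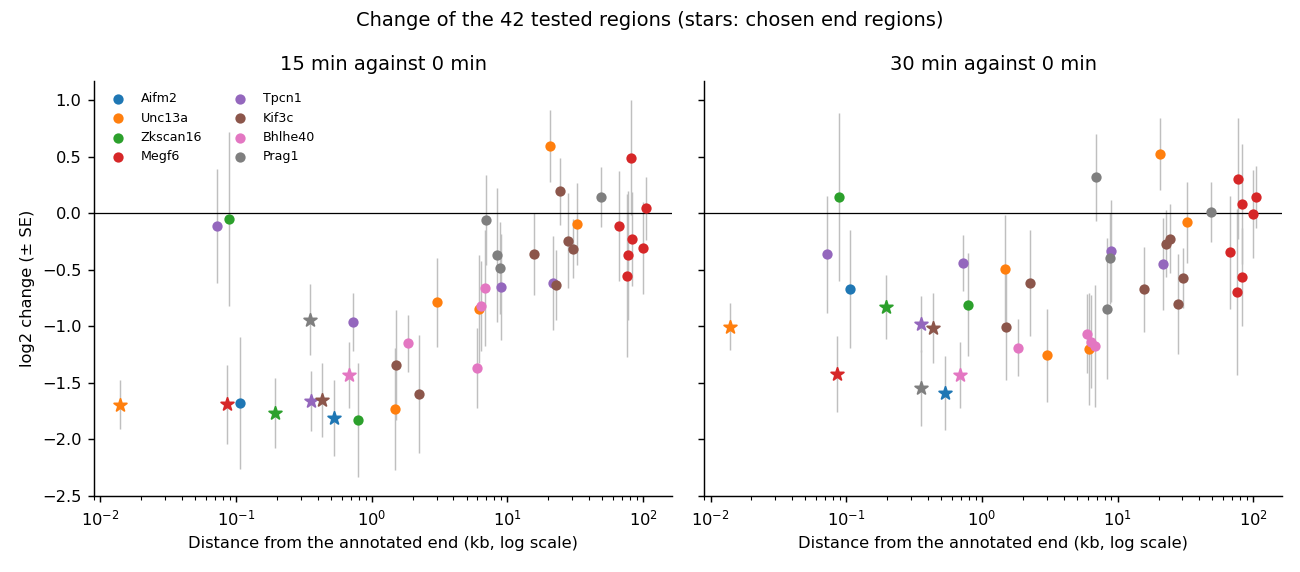
log2 change against 0 min (vertical axis, bars are SE) of the 42 tested regions against their distance from the annotated end that lost signal (kb, log scale), at 15 min (left) and 30 min (right); colours are genes and stars the chosen end regions. At 15 min all 4 regions at 1 to 3 kb lie between -1.74 and -1.15 and the 21 internal ones farther in between -0.85 and 0.60, while bidir_134917 at the other end of Bhlhe40, 5.96 kb away, lies at -1.37.

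The same distances were set beside other genes. At 15 min the median log2 change of the listed genes' internal regions was -1.47 at 1 to 3 kb (2 of 4 called lower), -0.57 at 3 to 10 kb (0 of 6) and -0.24 beyond 10 kb (0 of 15). The 4 tested at 1 to 3 kb lay in Unc13a, Kif3c and Bhlhe40 alone. In the 611 other genes with an end region called lower and a tested region inside, the medians were -0.59 (54 of 219 called lower, 24.7%), -0.39 (49 of 330, 14.8%) and -0.03 (21 of 1036, 2.03%). In all 5146 other genes with a tested end and inside region they were -0.19, -0.11 and 0.09, with 8.08%, 5.97% and 1.70% called lower. The values thus ran in the same order, lowest near the end, in all 3 sets of genes. These sets are not separate, since genes with an end called lower are also part of the 5146. In the 5146, distance was taken from the end region with the highest mean count, and elsewhere from the end that lost signal. No difference between the sets was tested. At 30 min the listed genes gave -0.81 (1 of 4 called lower), -0.62 (0 of 6) and -0.27 (0 of 15). The 65 other genes with an end called lower at 30 min gave -0.54 (1 of 21), -0.37 (3 of 44) and -0.22 (1 of 146). All 5146 other genes gave -0.07, -0.01 and 0.03, with 0.873%, 0.875% and 0.411% called lower. With scaling factors set on gene ends alone, all medians moved up. At 15 min the listed genes stood at -1.32, -0.40 and -0.08, and the genes with a lower end at -0.44, -0.24 and 0.13. All other genes stood at -0.025, 0.05 and 0.25. The sign thus turned beyond 10 kb in genes with a lower end and at 3 to 10 kb in all other genes. At 30 min all other genes then stood at 0.04, 0.10 and 0.14. Signs in the listed genes also varied between alternatives. Their median beyond 10 kb at 15 min was 0.15 with 20 counts in 3 libraries, and at 3 to 10 kb at 30 min it reached 0.32.

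**Figure D4:**
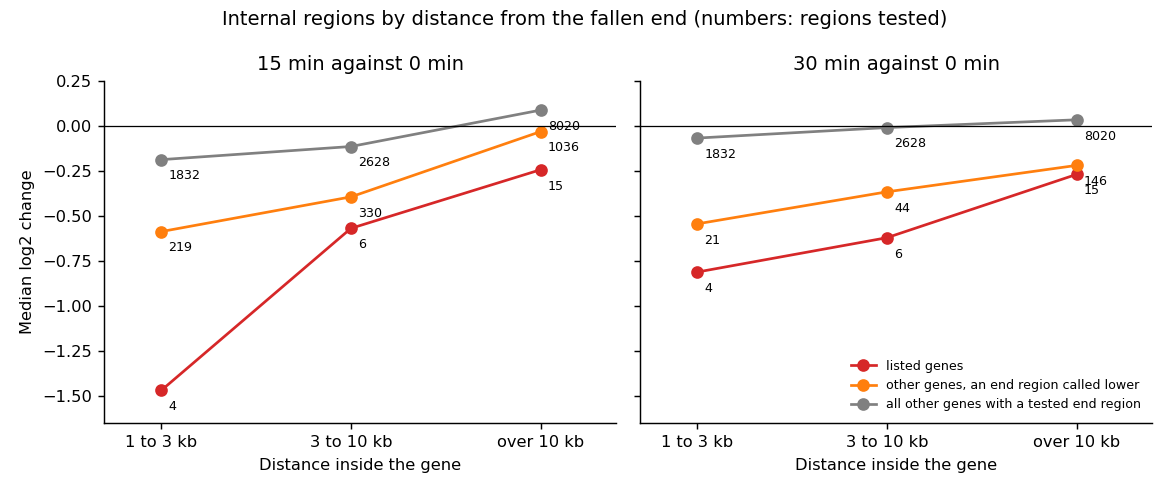
Median log2 change against 0 min of regions inside genes by distance from the gene end, at 15 min (left) and 30 min (right); numbers beside points are the regions tested. The listed genes (red, 4, 6 and 15 regions) run from -1.47 to -0.24 at 15 min, and other genes with an end region called lower (orange) from -0.59 to -0.03.

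Regions just outside the genes were mostly not called. Of 50 regions 1 to 20 kb beyond either end, 20 were tested, and at 15 min 4 were called lower and 1 higher by edgeR (3.96% and 4.29% of all tested regions), with a median log2 change of -0.21. The 4 were the Jak3 and 0610040F04Rik regions given above. The higher one, bidir_150372, nearest to Gm38414 and 7.93 kb beyond the other end of Prag1, rose from 7.17 ± 0.762 to 13.7 ± 1.94 CPM (log2 0.93 ± 0.23; edgeR, adjusted p = 0.0139) a call lost if 0 min library 3 or 15 min library 1 was left out. At 30 min 1 of 20, in 0610040F04Rik, was called lower (0.497% of all tested regions were lower and 1.24% higher).

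The families and pathways of the 8 genes were examined at gene ends through 8 lists of 118 further genes, of which 82 had a tested end region. For each gene the end region with the highest mean count was used. At 15 min 6 of 82 were called lower (7.32%) and 0 higher, where 9.04% of 13693 genes were lower and 1.99% higher, and the median log2 change was -0.15 beside -0.15 over all genes. At an unadjusted p under 0.05, 20 were lower and 2 higher, and DESeq2 called 5 lower and 0 higher. Shares of all genes under these 2 criteria are not given here. Such counts, also those of single lists below, are therefore not read as an excess. By edgeR's adjusted call the share lower was near that of all genes.

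In the vesicle release list 2 of 8 tested genes were called lower at 15 min, and 7 of 8 had a log2 change below 0, with a list median of -0.49. Of all genes 9.04% were called lower, the background for every list in this paragraph. The lists are small, and none was tested as a set. Rab3a, a small GTPase of synaptic vesicles, fell by 0.86 ± 0.12 on the log2 scale (edgeR, adjusted p = 4.29e-05), from 129, 147 and 115 CPM to 65.8, 80.3 and 70.2 CPM, at a region shared with Mpv17l2. Stx1a, a syntaxin of the presynaptic membrane, fell by 0.70 ± 0.20 (edgeR, adjusted p = 0.0329), a call lost without 0 min library 1 or 3 or 15 min library 1 or 2, and with factors from gene ends. Of 9 transport kinesins, the light chain genes Klc1 and Klc2 fell by 0.82 ± 0.18 and 0.92 ± 0.28 (edgeR, adjusted p = 0.00426 and 0.0433), with a list median of -0.26. The call of Klc2, whose region LOC115489018 shares, held in 9 of 18 alternatives: it was lost with DESeq2, with factors from gene ends, with only the 2 groups fitted and without any 1 of 6 libraries (0 min 1 or 2, 15 min 1 or 2, 30 min 2 or 3). Of 5 genes with multiple EGF domains Scarf2, a scavenger receptor gene, fell by 0.86 ± 0.16 (edgeR, adjusted p = 0.00107; list median -0.16). Of 8 circadian clock genes Nr1d1, which encodes the repressor REV-ERB alpha, fell by 0.60 ± 0.13 (edgeR, adjusted p = 0.00482; list median -0.32) at a region shared with Gm31862.

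In the other lists 0 genes were called at 15 min by edgeR or DESeq2: ferroptosis (13 tested, median -0.13, 4 lower at an unadjusted p under 0.05), SCAN zinc fingers (18, -0.05, 2 lower), lysosomal channels (9, -0.14, 0 lower and 1 higher), and PRAG1 and SRC signalling (12, -0.13, 3 lower). At 30 min 2 of 82 were lower (2.44%, beside 0.906% of all genes). These were Scarf2, by 0.75 ± 0.16 (edgeR, adjusted p = 0.0122), and Rab3a, by 0.46 ± 0.12 (edgeR, adjusted p = 0.0384). The Scarf2 call was lost without 0 min library 1 or 30 min library 1 or 3, and that of Rab3a without 0 min library 1 or 2 or any 1 of the 30 min libraries, and with factors from gene ends.

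The 5 gene ends closest to the 8 chosen ones were found by the Euclidean distance of their 15 and 30 min log2 changes to the median pair of the 8 (-1.68 and -1.22), among 11871 gene-end regions over 9 libraries. They belonged to Dlgap3, a postsynaptic scaffold gene (-1.57 and -1.16), 4732414G09Rik (-1.60 and -1.06), Gm31342 (-1.47 and -1.24), Dnaaf3, an assembly factor gene for ciliary dynein (-1.38 and -1.18), and Frmd5 (-1.37 and -1.23). Dlgap3 went from 7.22 ± 3.11 CPM at 0 min to 2.45 ± 0.245 and 3.27 ± 0.585 CPM.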

How the data were processed

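Raw read counts for 174289 regions were deposited by the authors; the deposited region lists hold other values, start and end on mm10. Among tools, the submitters' processing notes list HISAT2, featureCounts, and DESeq2 1.26.0; settings, the strand counted and the handling of reads in overlapping windows are not given in the sources used here, and 31 of the 97 windows overlap another. Counts of the Drosophila nuclei added as a spike-in were not used here, so changes are relative to other mouse regions. Gene ends came from an annotation of GRCm38 with no strand, using 35108 of 49943 genes. The members and lists were chosen with earlier results of these data known, and the 3 and 10 kb distances and 20 kb flanks after their values were seen.

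Counts were analysed with edgeR 4.0.16 in R 4.3.3: default filter (54299 tested), TMM factors, 1 quasi-likelihood fit of 9 libraries with time as a factor, Benjamini-Hochberg over all tested regions, calls at 0.05, tested on simulated data. The SE is the log2 change divided by the square root of F. The chosen region of a gene is the end region with the lowest log2 change and a mean of at least 20 counts; the count minimum, part of the original listing, mattered at Zkscan16. Named regions were every end region, called internal regions, the highest internal region per gene, called list members and the 5 closest gene ends. Alternatives were other scalings, filters, DESeq2 1.42.0, a replicate block, windows without overlap, a 500 bp gene-end limit and each library left out.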

Additional observations from a re-analysis of the deposited data

How the results depend on the processing

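The chosen end regions kept a log2 change below 0 at both times in all 18 alternatives, which their selection from these same libraries largely fixed. That of Bhlhe40 moved by more than its replicate spread without 0 min library 1. With factors from gene ends they stood 0.16 to 0.19 higher at 15 min and 0.11 to 0.13 higher at 30 min, the median of all regions shifting by 0.162 and 0.109. The split of all calls at 15 min then went from 2331 higher and 2148 lower (52.0% higher) to 4135 and 968 (81.0%), and at 30 min from 675 and 270 (71.4%) to 1107 and 132 (89.3%); with no filter it was 1815 and 2359 (43.5%) at 15 min, where lower calls became the majority, and 644 and 470 (57.8%) at 30 min. Leaving out 1 library gave 2123 to 6412 calls at 15 min (4479 with all), 171 to 1510 at 30 min (945) and 154 to 548 for 30 against 15 min (382). For the listed genes' other regions the range was 0 to 6 at 15 min (main 5), 0 to 2 at 30 min (1) and 0 to 0 between them. At 15 min it was 3 with 20 counts in 3 libraries, 3 with DESeq2 and 2 with windows that overlap no other; at 30 min it was 2 with no filter. The end minus internal difference ranged over omissions from -1.52 to -1.16 at 15 min and -0.69 to -0.33 at 30 min for Unc13a, -1.73 to -1.30 and -1.18 to -0.54 for Megf6, -1.22 to -0.76 and -0.75 to -0.23 for Kif3c, -1.14 to -0.41 and -1.64 to -1.04 for Prag1, -0.45 to -0.13 and -0.43 to -0.09 for Bhlhe40, and -0.72 to -0.19 and -0.40 to 0.13 for Tpcn1, reversed at 0.13 without 0 min library 1. With the replicate number as a block, 4804, 1107 and 421 regions were called in the 3 comparisons, and 5, 1 and 0 of the listed genes' other regions; same-numbered libraries correlated at -0.05 to 0.18, so the numbers were not taken to pair them. The filter on low counts left 48 of the 69 regions beyond 3 kb untested. The cause of these changes was not tested.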
